A study of Mus musculus with 8 samples.

Results

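The 10 Krüppel-like factor (KLF) genes described here are Klf2, Klf3, Klf4, Klf5, Klf6, Klf9, Klf10, Klf11, Klf13 and Klf15, of 21923 protein-coding genes in GENCODE release M21 for the mouse. They were listed by name, with earlier results of these data known, and other genes of the family were left out. For each gene, regions of histone H3 acetylated at lysine 27 (H3K27ac) were collected that held one of its transcription start sites (TSSs), that overlapped its gene body, or that lay within 50 kb of one of its TSSs. H3K27ac marks active promoters and enhancers, and it was mapped by ChIP-seq in mouse primary hepatocytes (MPH) from adult male C57Bl6 mice of wild-type genotype (C57BL/6J in the study's methods). The cells were exposed for 4 h to 1 µM thapsigargin, which blocks the calcium pump of the endoplasmic reticulum and so causes endoplasmic reticulum stress (ERS), or to the vehicle, 0.04% DMSO. Each treatment had 3 H3K27ac libraries and 1 library of input DNA, 8 in all, and the study's methods name independent experiments as their source. Hepatocytes were kept in serum-free medium outside the liver, which limits them as a model of the organ.

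The data are 3 lists of region positions on mm10, in which H3K27ac was called higher after thapsigargin (UP, 5508 regions), lower (DOWN, 3376 regions) or neither (unchanged, 23312 regions). They hold no read count, fold change or p-value, so no value below has an error between libraries, the depth of the libraries is unknown, and no test was made on the KLF genes. The values describe in which list a region stands and how wide it is. Unchanged regions are those that did not pass the authors' limit on the false discovery rate, which does not show that they stayed the same. A UP or DOWN region need not have changed over its whole width. A TSS in no region may lie where no region was called or in a region of mixed direction, which no list holds. H3K27ac is not a measure of transcript level. The direction was read from the names of the lists. Hspa5, Ddit3 and Xbp1, well-known targets of the unfolded protein response, all had a TSS in a UP region. All 6 hepatocyte marker genes examined had a TSS in a region, 3 of them in DOWN regions (Apoa1, Hnf4a and Serpina1a). Over all protein-coding genes with a TSS in any region, 8.31% had one in a DOWN region. That share was 21.9% where the widest TSS region reached 3 kb, as it did for all 6 markers. None of the 5 Kupffer cell, 5 stellate cell and 3 lymphocyte markers had a TSS in a region. Of the 5 endothelial markers, Stab2 alone had one, in an unchanged region, and of the 5 cholangiocyte markers, Sox9 had one in a UP region and Spp1 in an unchanged region.

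KLF proteins are transcription factors that bind GC-rich and CACCC-containing DNA through conserved zinc fingers at their C-terminal end, and differ in the N-terminal part that recruits cofactors. KLF3 belongs to the members that recruit the corepressor CtBP, KLF2, KLF4, KLF5 and KLF6 to those that often activate transcription together with acetyltransferases, and KLF9, KLF10, KLF11 and KLF13 to those that recruit the corepressor SIN3A. KLF15 stands apart from these subgroups and is known in hepatocytes for its part in amino acid catabolism and gluconeogenesis. Many KLF genes respond quickly to hormones, growth factors or stress.

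A TSS of 3 KLF genes lay in a UP region (Klf4, Klf5 and Klf9), that of 3 others in a DOWN region (Klf3, Klf6 and Klf13), and all TSSs of 3 more lay in unchanged regions (Klf10, Klf11 and Klf15). Klf2 had no TSS in a region. Thus 9 of the 10 genes had a TSS in a region, and of these 33.3% stood in a UP and 33.3% in a DOWN region. Over the 9802 protein-coding genes with a TSS in any region, 21.6% had a TSS in a UP region and 8.31% in a DOWN region. Each share rests on 3 genes and was not tested. The directions crossed the subgroups: the CtBP-binding Klf3 was in DOWN, the 4 activators held 2 genes in UP, 1 in DOWN and 1 in no region, and the 4 SIN3A-binding genes held 1 with a TSS in UP, 1 in DOWN and 3 in unchanged regions, since Klf13 stood in both of the latter classes.

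The promoters of the 5 KLF genes that had a TSS in a UP or DOWN region and an entry in the RefSeq promoter table are shown first, since H3K27ac at these stretches is what the lists report, together with that of Klf15 as a gene with its TSSs in an unchanged region. Each runs 5′ to 3′ on the coding strand from 250 bases before to 50 after the RefSeq start site, on GRCm38.p6, the assembly of mm10. Capitals mark the GC box GGGCGGG, a binding sequence of the KLF and SP family, or the core TGACGTG of the unfolded protein response element (UPRE), each on either strand. The table had entries for 8 of the 10 genes and none for Klf5 and Klf10.
Klf4 (UP, chr4:55532426-55532725, minus strand): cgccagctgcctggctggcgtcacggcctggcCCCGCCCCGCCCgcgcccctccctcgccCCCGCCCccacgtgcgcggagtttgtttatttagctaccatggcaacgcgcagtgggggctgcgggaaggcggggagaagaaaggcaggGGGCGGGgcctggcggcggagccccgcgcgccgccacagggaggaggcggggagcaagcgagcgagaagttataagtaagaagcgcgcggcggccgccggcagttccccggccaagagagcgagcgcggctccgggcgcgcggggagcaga
Klf9 (UP, chr19:23140976-23141275, plus strand): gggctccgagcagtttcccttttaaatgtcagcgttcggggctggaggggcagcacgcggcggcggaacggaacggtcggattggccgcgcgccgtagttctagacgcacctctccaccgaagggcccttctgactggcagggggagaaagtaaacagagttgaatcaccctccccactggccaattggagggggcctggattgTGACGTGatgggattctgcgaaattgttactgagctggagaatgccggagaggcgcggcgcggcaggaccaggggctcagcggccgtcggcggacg
Klf3 (DOWN, chr5:64803271-64803570, plus strand): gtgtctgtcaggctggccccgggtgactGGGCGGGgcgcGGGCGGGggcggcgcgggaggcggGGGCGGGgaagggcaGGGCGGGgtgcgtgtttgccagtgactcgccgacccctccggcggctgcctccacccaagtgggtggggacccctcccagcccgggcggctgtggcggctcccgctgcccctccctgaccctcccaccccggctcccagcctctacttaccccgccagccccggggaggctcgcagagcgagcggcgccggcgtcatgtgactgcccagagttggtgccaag
Klf6 (DOWN, chr13:5861239-5861538, plus strand): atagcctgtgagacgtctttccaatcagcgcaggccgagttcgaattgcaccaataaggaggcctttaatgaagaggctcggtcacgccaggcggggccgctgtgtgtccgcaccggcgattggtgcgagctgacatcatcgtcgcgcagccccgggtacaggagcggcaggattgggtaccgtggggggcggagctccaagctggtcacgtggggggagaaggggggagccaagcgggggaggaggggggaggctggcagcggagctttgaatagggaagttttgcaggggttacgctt
Klf13 (DOWN, chr7:63938866-63939165, minus strand): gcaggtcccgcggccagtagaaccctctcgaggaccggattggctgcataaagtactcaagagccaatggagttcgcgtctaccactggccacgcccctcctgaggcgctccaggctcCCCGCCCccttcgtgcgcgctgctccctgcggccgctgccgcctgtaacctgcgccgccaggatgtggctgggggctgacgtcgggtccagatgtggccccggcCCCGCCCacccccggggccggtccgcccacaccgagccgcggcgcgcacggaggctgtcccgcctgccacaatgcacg
Klf15 (unchanged, chr6:90462326-90462625, plus strand): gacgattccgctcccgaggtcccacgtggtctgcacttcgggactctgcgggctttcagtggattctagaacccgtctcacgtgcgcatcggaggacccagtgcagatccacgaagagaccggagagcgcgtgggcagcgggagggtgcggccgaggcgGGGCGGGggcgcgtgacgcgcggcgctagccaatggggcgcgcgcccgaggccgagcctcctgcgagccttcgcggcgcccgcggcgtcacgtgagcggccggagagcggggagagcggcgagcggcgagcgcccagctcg

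All 8 promoters were rich in G and C. Their GC content ran from 63% (Klf6) to 77.7% (Klf11), beside a median of 52.7% over the 32851 promoters of the table, and the ratio of observed to expected CpG from 0.659 (Klf3) to 1.18 (Klf15), beside a median of 0.384. The GC box occurred 16 times in 6 of the 8 promoters and was absent from those of Klf6 and Klf9. It was held by 25.6% of all promoters of that length. The promoters of the table were not limited to start sites in H3K27ac regions or to CpG-rich ones. The comparisons of GC content, CpG and motifs are therefore not matched. Both a DOWN and a UP gene carried the most copies, with 4 each in Klf3 and Klf4, while Klf11 had 3, Klf2 and Klf13 had 2 each and Klf15 had 1. The UPRE core stood once, in Klf9, with its first base 46 bases before the start site, and 2.01% of all promoters held it. No match was found in the 8 promoters for the KLF site GGGTGTGG (the reverse complement of the CACCC box CCACACCC, 3.56% of all promoters), the AP-1 site TGACTCA or TGAGTCA (5.2%), the ATF4/CHOP site TGATGCAA (0.895%), the D-box TTATGTAA or TTACGTAA (1.06%), the TATA box TATAAA (13.6%) or the ER stress response element, CCAAT and CCACG with 9 bases between them (0.119%). None of these motifs contains another, and a match or its absence in these windows says nothing of binding.

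Klf3, a broadly expressed member that represses transcription through CtBP, stood in a wide DOWN region of 11689 bp (chr5:64802308-64813996). This region began 1080 bp upstream of the gene start and ran 10608 bp into the gene, over 573 bp of non-coding exon and 10036 bp of intron. It held 6 of the 9 annotated Klf3 TSSs, and the other 3, further into the gene, lay in no region. Regions covered 35.9% of the 29514-bp gene, and this DOWN region was all of it. The same region held TSSs of the non-coding genes C230096K16Rik and Gm20033, the latter on the opposite strand, and H3K27ac carries no strand that could tell them from Klf3. A UP region of 4305 bp lay upstream of Klf3, with its near end at 48792 bp, close to the limit of the window, and a second DOWN region of 1612 bp lay downstream of the gene, 34109 bp from its last TSS. With any base in the window counted, Klf3 is therefore one of 2 KLF genes with both UP and DOWN regions within 50 kb.

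The 4 activator genes differed among themselves. Klf6, which is induced early in injured and regenerating tissue, stood in the widest region at any KLF gene, a DOWN region of 13174 bp (chr13:5858935-5872108). It covered the whole 8913-bp gene, from 2547 bp upstream of its start to past its end, with all 3 of its TSSs, 1008 bp of coding sequence, 3383 bp of non-coding exon and 4522 bp of intron. In addition, 2 DOWN regions of 1890 bp and 2489 bp lay 28355 bp and 33838 bp upstream, with an unchanged region of 1696 bp between them and the gene at 11283 bp. No UP region was found within 50 kb, and Klf6 had the nearest coding TSS for all 6 regions of its window.

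Klf4, a reprogramming factor that also acts in epithelial differentiation, had UP regions alone. A UP region of 1603 bp (chr4:55532115-55533717) reached from 1251 bp upstream to 351 bp inside the 5324-bp gene, and held 2 of its 3 TSSs. The third TSS, which starts within the gene, lay in no region. A further UP region of 2282 bp began 8373 bp upstream, and both made up the whole set within 50 kb of Klf4.

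Klf5, known for the growth of intestinal crypt cells, had a similar but narrower layout. Both of its TSSs lay in a UP region of 1121 bp (chr14:99298262-99299382) that extended 429 bp upstream and 691 bp into the gene, and a second UP region of 1520 bp lay 1999 bp upstream. An unchanged region of 1057 bp stood downstream of the gene, 25089 bp from the nearer TSS. The TSS regions of Klf4 and Klf5 were the narrowest among the KLF genes with one, and neither covered 500 bp on both sides of a TSS.

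Klf2, which maintains quiescent endothelium, had its single annotated TSS in no region. An unchanged region of 399 bp (chr8:72319056-72319454) began 23 bp inside the gene, and its 3 other regions within 50 kb, all unchanged, lay nearer to the TSSs of Gm10282 or Eps15l1. The RefSeq start site of Klf2 lies 29 bp downstream of the GENCODE TSS and falls in the 399-bp region, so that all KLF genes had a start site in a region when RefSeq sites were taken where the table had them.

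**Figure D1:**
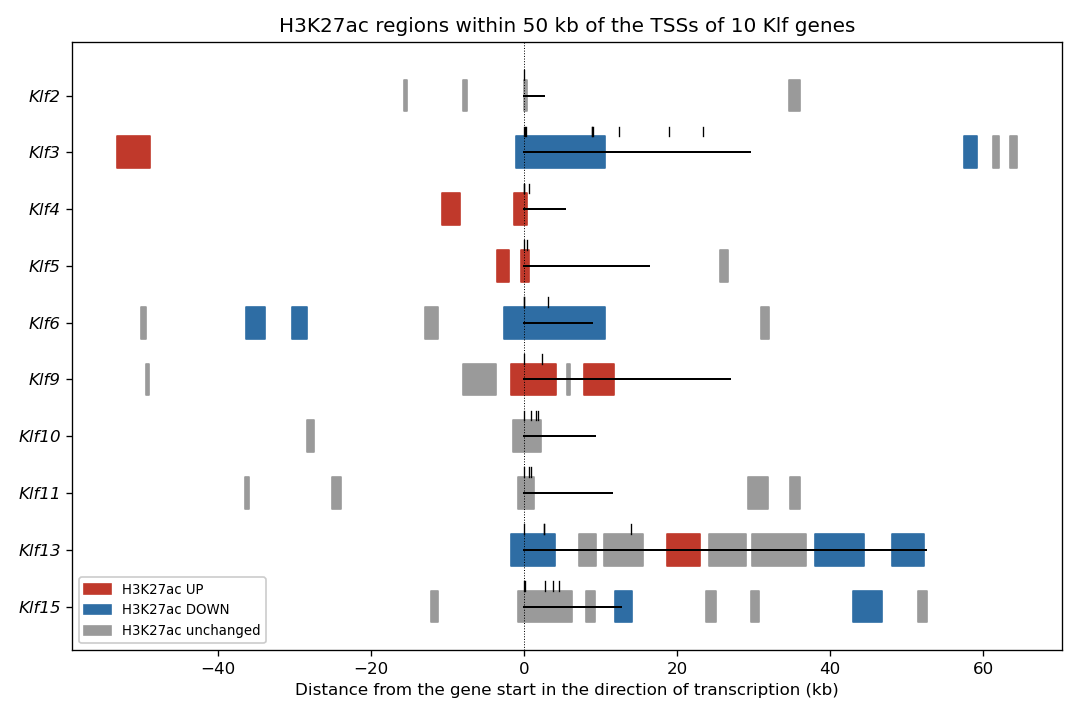
Map of the 48 H3K27ac regions within 50 kb of the TSSs of the 10 KLF genes, by distance from the gene start in kb along the direction of transcription, with the gene as a black line and its TSSs as ticks. DOWN regions of 11689 bp and 13174 bp covered the starts of Klf3 and Klf6, UP regions stood at and near the starts of Klf4, Klf5 and Klf9, and Klf2, Klf10 and Klf11 had unchanged regions alone.

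Among the SIN3A-binding genes, Klf9, which glucocorticoids and thyroid hormone induce in many tissues, was the one with UP regions at its TSS. Both of its TSSs lay in a UP region of 5984 bp (chr19:23139478-23145461) that ran from 1748 bp upstream to 4235 bp into the gene, over 505 bp of coding sequence, 858 bp of non-coding exon and 2873 bp of intron. A second UP region of 3848 bp lay wholly in the intron, 7868 bp from the gene start, and a narrow unchanged region of 419 bp stood between them. Upstream of the gene, an unchanged region of 4300 bp ended 3602 bp before the start, 1853 bp from the UP region. Regions covered 31.6% of the 26909-bp gene, and UP regions 30% of it.

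Klf10 and Klf11, both first described as genes that TGF-β induces early, had unchanged regions alone. The 4 TSS positions of Klf10 lay in a region of 3675 bp (chr15:38298420-38302094), and the only other region within 50 kb, of 869 bp, stood 27464 bp upstream. The 3 TSS positions of Klf11 lay in a region of 2095 bp (chr12:24650456-24652550). Among the 4 further regions near Klf11, of 553 bp to 2556 bp, 1 lay in the Grhl1 gene, 1 held a TSS of Cys1 and 1 lay closest to that TSS.

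Klf13, a member known from T lymphocytes, where it acts on the gene of the chemokine RANTES, had the largest total width of regions of the 10 genes, 39657 bp. All 8 of its regions overlapped the gene, which spans 52565 bp on the minus strand, the first of them with 1622 bp upstream of the gene start, and together they covered 72.4% of it (percentile 96.8 among protein-coding genes with a TSS in a region). Their order from the gene start was DOWN (5733 bp, chr7:63934805-63940537), unchanged (2268 bp), unchanged (5089 bp), UP (4260 bp), unchanged (4738 bp), unchanged (7001 bp), DOWN (6333 bp) and DOWN (4235 bp). Of its 4 TSS positions, 3 lay in the first DOWN region, whereas an internal TSS, that of a coding transcript, lay in the unchanged region of 5089 bp. Klf13 was the one KLF gene with TSSs in regions of different class. The last DOWN region fell wholly in the non-coding part of the 3′ exon, and the DOWN region before it was intronic.

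Another coding gene overlapped the UP region in the Klf13 gene. This region (chr7:63915933-63920192) lay 4678 bp from the closest Klf13 TSS, in its intron, and held a TSS of E030018B13Rik, which is on the opposite strand. The 2 distal DOWN regions were nearer to that TSS as well, at 16019 bp and 25961 bp, than to a TSS of Klf13, at 24032 bp and 33974 bp. To which of the genes these regions belong cannot be told from positions.

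**Figure D2:**
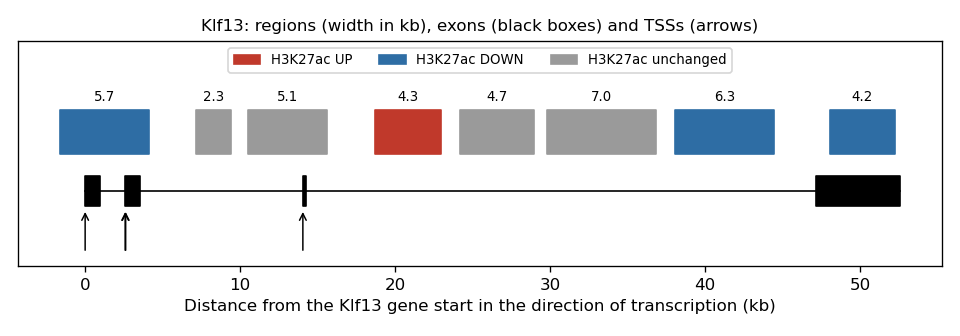
The 8 H3K27ac regions of the Klf13 gene by distance from the gene start in kb, labelled with their width in kb, above its exons (black boxes) and TSSs (arrows; 2 of the 4 nearly coincide). DOWN regions stood at both ends of the gene, and the UP region of 4260 bp in the middle.

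Klf15 is the KLF gene that the study's list of liver identity genes holds, whereas Klf2, Klf3, Klf4, Klf6, Klf9, Klf10 and Klf13 are in its list of genes with a ubiquitous broad H3K4me3 domain, and Klf5 and Klf11 in neither. All 5 of the Klf15 TSSs lay in an unchanged region of 7113 bp (chr6:90461752-90468864), which covered 6289 bp of the 12663-bp gene. Away from the start, a DOWN region of 2283 bp (chr6:90474411-90476693) overlapped 828 bp of the non-coding 3′ exon and ran past the end of the gene. Another DOWN region, of 3812 bp, lay 38408 bp downstream of the last TSS, within Aldh1l1, which encodes an enzyme of folate metabolism and has the nearer TSS, at 19099 bp. Thus Klf15 had 2 DOWN, 6 unchanged and no UP regions within 50 kb, with none of the DOWN regions at a TSS. Regions covered 65.8% of the gene (percentile 96.2), and DOWN regions 6.54%.

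The widths of the TSS regions spread widely. The widest region at a TSS was 13174 bp for Klf6, 11689 bp for Klf3, 7113 bp for Klf15, 5984 bp for Klf9, 5733 bp for Klf13, 3675 bp for Klf10, 2095 bp for Klf11, 1603 bp for Klf4 and 1121 bp for Klf5. Among the 9802 protein-coding genes with a TSS in a region, whose median was 1782 bp, this put Klf6 at percentile 99.1, Klf3 at 98.6, Klf15 at 94.5, Klf9 at 92.3 and Klf13 at 91.7, while Klf4 stood at 44 and Klf5 at 25.6. In the whole set, DOWN regions had a median width of 2229 bp, UP regions of 1622 bp and unchanged ones of 1155 bp, so the ranks were taken within class as well: Klf6 then stood at 94.9, Klf3 at 92.7 and Klf13 at 67.9 among genes with a DOWN TSS region, and Klf9 at 90.2 among those with a UP TSS region. Klf15 stood at 97.3 among genes with an unchanged TSS region.

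The shares were also read over genes with a wide TSS region. Of the 6 KLF genes whose widest TSS region reached 3 kb, 1 had a TSS in UP (Klf9), 3 in DOWN (Klf3, Klf6 and Klf13) and 2 had it unchanged (Klf10 and Klf15). Over all 2515 protein-coding genes with so wide a region, 28.5% had a TSS in UP and 21.9% in DOWN, so that the background for DOWN is higher there than over all genes.

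**Figure D3:**
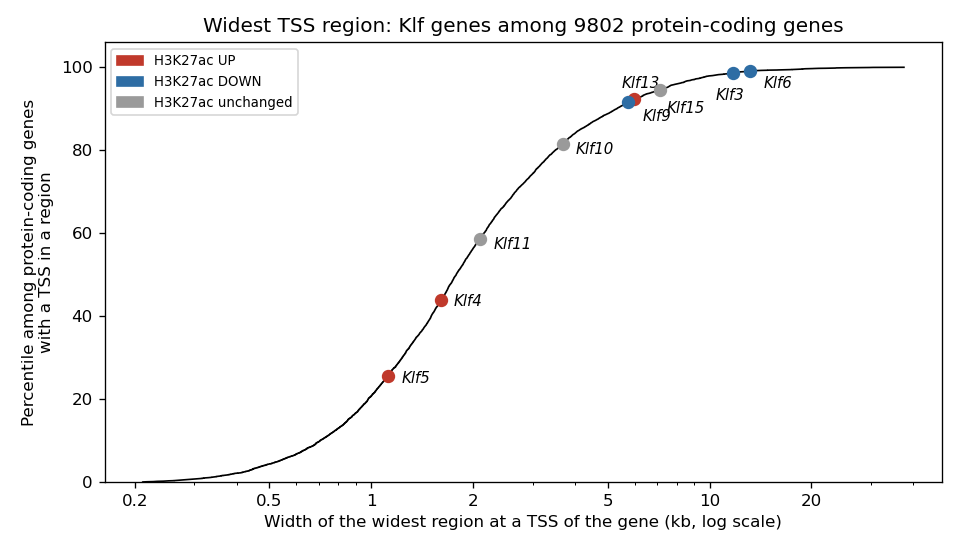
Width of the widest H3K27ac region at a TSS (kb, log scale) against its percentile for 9802 protein-coding genes (line), with the 9 KLF genes as points coloured by class. The 3 genes with DOWN regions stood at percentile 91.7 or above, whereas those with UP regions ranged from 25.6 to 92.3.

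Within 50 kb of the TSSs of the 10 genes lay 48 regions, of which 8 were UP (16.7%), 10 DOWN (20.8%) and 30 unchanged (62.5%). Over the 27435 regions within 50 kb of any protein-coding TSS, 17.0% were UP and 10.1% DOWN. The share of UP regions near KLF genes was thus close to that background, and the share of DOWN regions above it. Counted in base pairs, UP regions made 18.3% of the 48 and DOWN regions 39.1%, and their median widths were 3065 bp and 4024 bp, respectively, beside 1180 bp for unchanged ones. In base pairs the background was 21.3% for UP and 17.7% for DOWN, so that the DOWN share over all genes is higher as well when width counts. Within 10 kb, 7 of 21 regions were UP (33.3%) and 4 were DOWN (19%), beside 17.4% and 9.04% of the 18597 regions within 10 kb of any protein-coding TSS. Within 100 kb, 9 of 73 regions were UP (12.3%) and 15 were DOWN (20.5%), beside 16.9% and 10.4% of 29767. The windows are nested and hold few changed regions, and a dependence on distance was not tested. Among the 33 regions whose nearest coding TSS was that of the KLF gene, 7 were UP and 7 DOWN (21.2% each). Of the 12 UP or DOWN regions within 50 kb that held no TSS of the KLF gene, 7 were DOWN, at Klf3, Klf6, Klf13 and Klf15, and 5 were UP. The KLF gene had the nearest coding TSS for 8 of these 12. No share over all protein-coding genes was computed for regions chosen by nearest TSS or for regions without a TSS of the gene. The shares over all genes given above are for other sets of regions.

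By gene, 3 had UP but no DOWN regions within 50 kb (Klf4, Klf5 and Klf9), 2 had DOWN but no UP regions (Klf6 and Klf15), 2 had both (Klf3 and Klf13) and 3 had neither (Klf2, Klf10 and Klf11). Of the 9 genes with a TSS in a region, 2 had both and 2 neither, beside 16.3% and 31.5%, respectively, of all such protein-coding genes. For UP alone and DOWN alone, no share over all genes was computed, so these counts stand without a background. In the gene bodies stood 21 regions, 5 of them UP (23.8%), 6 DOWN (28.6%) and 10 unchanged (47.6%). Over the 23268 regions in any protein-coding gene, 17.4% were UP and 9.57% DOWN. Klf13 alone held 8 of the 21 regions, including 3 of the 6 DOWN ones.

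**Figure D4:**
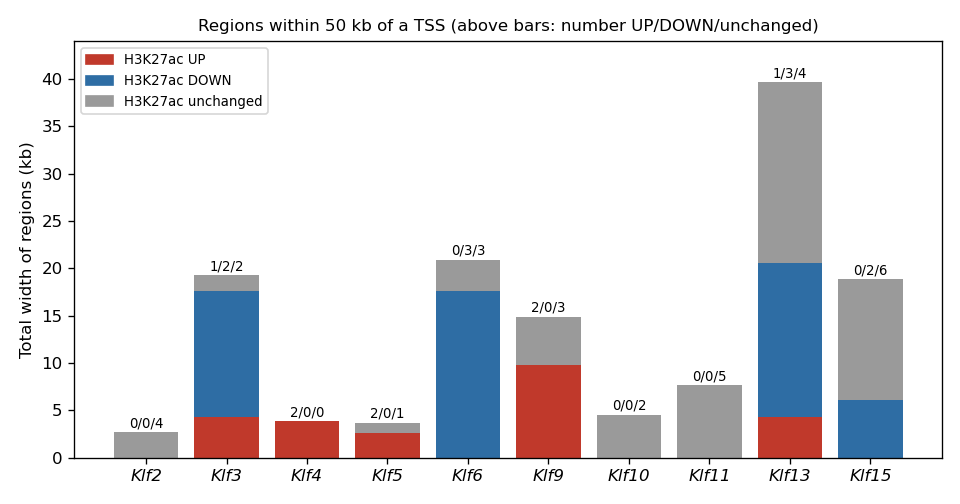
Total width in kb of the UP, DOWN and unchanged H3K27ac regions within 50 kb of the TSSs of each KLF gene, with the number of regions of each class above the bar. Klf13 had the most, 39657 bp in 8 regions, and Klf2 the least, 2689 bp in 4.

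**Figure D5:**
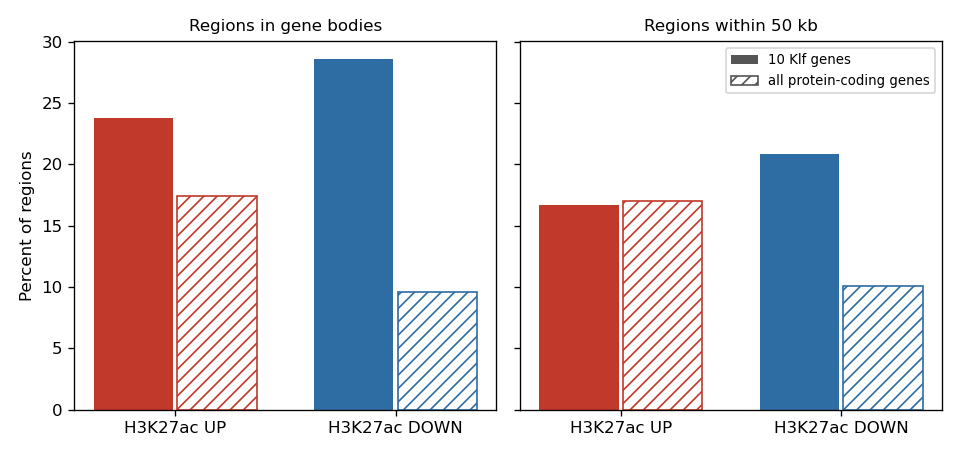
Percent of H3K27ac regions that were UP or DOWN in gene bodies and within 50 kb of a TSS, for the 10 KLF genes (filled bars; 21 and 48 regions) and all protein-coding genes (hatched bars; 23268 and 27435 regions). In gene bodies, the UP shares were 23.8% and 17.4%, and the DOWN shares 28.6% and 9.57%. Within 50 kb, the UP shares were 16.7% and 17.0%, and the DOWN shares 20.8% and 10.1%.

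Short stretches of the changed regions that held an element of the stress response are shown, to place these elements relative to the genes. Each is the plus strand of GRCm38 with the match in capitals and 11 bases on each side. Matches to the UPRE core were 3 in the 8 UP regions and 1 in the 10 DOWN regions, with none in the unchanged regions. Those listed for Klf13 lay in the region that also holds a TSS of the coding gene E030018B13Rik. The first of them stands next to that TSS, and to which gene they belong cannot be told from positions.
Klf9 (UP region at the TSS, 46 bp before the gene start, chr19:23141169-23141197): ggcctggattgTGACGTGatgggattctg
Klf13 (intronic UP region, 22063 bp into the gene, chr7:63916835-63916863): gctgaaacctcTGACGTGaattagttttc
Klf13 (same UP region, 21686 bp into the gene, chr7:63917212-63917240): tttcaaaagccCACGTCAggcccagagag
Klf6 (upstream DOWN region, 35017 bp before the gene start, chr13:5826454-5826482): agaggcacttgCACGTCAgccctcactag
The ATF4/CHOP site was found in 2 UP regions, 1 DOWN region, that of the Klf13 3′ exon, and 2 unchanged regions, both near Klf15, 1 of them at its TSSs. Those in UP and DOWN regions are shown.
Klf5 (UP region upstream, 3501 bp before the gene start, chr14:99295179-99295208): ttctaaagttcTTGCATCAaagtgatcggc
Klf3 (UP region upstream, 50159 bp before the gene start, chr5:64753218-64753247): cgccctggataTGATGCAAactccagcatt
Klf13 (DOWN region of the 3′ exon, 50441 bp into the gene, chr7:63888456-63888485): cataatatggcTGATGCAAagaaggacttt
The AP-1 site occurred 8 times in UP, 6 times in DOWN and 14 times in unchanged regions. The UP copies lay at Klf3, Klf4, Klf9 and Klf13, and the DOWN copies at Klf6 (1) and Klf13 (5). The 3 copies of Klf4, chosen as examples after the matches were seen because 2 of them stand in the region at its TSS, are shown.
Klf4 (UP region at the TSS, 536 bp before the gene start, chr4:55532985-55533013): gattatccgcgTGACTCAtccagcccgcc
Klf4 (same UP region, 908 bp before the gene start, chr4:55533357-55533385): aagatgagaagTGAGTCAtaaagaggtga
Klf4 (UP region upstream, 9391 bp before the gene start, chr4:55541840-55541868): tgttgaatttgTGACTCAcaggctctctg

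Per kb, the KLF genes' UP regions held 0.12 UPRE cores, 0.0802 ATF4/CHOP sites and 0.321 AP-1 sites, whereas all 5508 UP regions held 0.0523, 0.06 and 0.409. Their DOWN regions held 0.0188 UPRE cores, 0.0188 ATF4/CHOP sites and 0.113 AP-1 sites per kb, beside 0.0324, 0.0244 and 0.239 over all 3376 DOWN regions. In their unchanged regions the rates were 0, 0.0345 and 0.242, beside 0.0415, 0.0291 and 0.308 over all 23312. The ATF4/CHOP and AP-1 sites were thus sparser in DOWN than in unchanged regions both near KLF genes and over all regions. The UPRE core had the reverse order near KLF genes, at 0.0188 in DOWN and 0 in unchanged regions. These rates rest on 3, 2 and 8 matches in UP, on 1, 1 and 6 in DOWN and on 0, 2 and 14 in unchanged regions and describe only where the letters stand. The GC box had higher rates near KLF genes in all 3 classes, with 0.722 per kb in UP, 0.488 in DOWN and 0.535 in unchanged regions, beside 0.351, 0.21 and 0.441 over all regions of the class. Most of these copies in changed regions lay in TSS regions of the KLF genes. Of 18 in UP, the TSS region of Klf4 held 8, that of Klf9 held 5 and that of Klf5 held 4. Of 26 in DOWN, the TSS region of Klf13 held 13 and that of Klf3 held 11. The unchanged TSS region of Klf10 held 12. The rates beside them are over all regions of the class, not TSS regions alone, and whether the excess is particular to KLF genes was not tested.

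Genes that belong to the same family or act with the KLF proteins were examined in lists, here and in the next paragraph. Of 21923 protein-coding genes, 9802 had a TSS in any region. Among these 9802, 21.6% had a TSS in a UP region and 8.31% in a DOWN region. The lists are small, and none was tested against these shares. Of 16 other KLF and SP genes, 7 had a TSS in a region: Klf12 and Klf16 in UP, Klf7 in DOWN, Sp2 in both a DOWN and an unchanged region, and 3 (Sp1, Sp3 and Sp4) in unchanged regions alone. The other 9, among them the erythroid Klf1, had none. Among 10 coregulator genes, which encode CtBP, SIN3, histone deacetylase and acetyltransferase proteins, 8 had TSSs in unchanged regions alone, Hdac3 had a TSS in a UP region, and Ctbp2 had none in a region. Ctbp1, Sin3a and Sin3b, which encode cofactors that KLF3 and the SIN3A-binding members recruit, were among the 8.

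Of 12 genes of pathways upstream of KLF genes (the glucocorticoid receptor, the ERK5 and MEF2 cascade, and TGF-β signaling), 7 had TSSs in unchanged regions alone, among them Nr3c1, the glucocorticoid receptor gene, and Tgfbr1 and Tgfbr2, the TGF-β receptor genes. Mapk7, which encodes ERK5, had a TSS in a UP region, Smad3 in a UP and an unchanged region, and Mef2d in a DOWN region of 12797 bp. The other 2, Mef2c and Tgfb1, had no TSS in a region. All 8 metabolic genes linked to Klf15 had a TSS in a region. Got1, an aspartate aminotransferase gene, was in UP, Gpt, an alanine aminotransferase gene, was in DOWN, its paralog Gpt2 had TSSs in both, and Prodh, which encodes the enzyme that starts proline breakdown, was in a DOWN and an unchanged region. The remaining 4 (Tat, Pck1, G6pc and Fbp1) stood in unchanged regions alone, as Klf15 did.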

How the data were processed

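H3K27ac ChIP-seq and input DNA from MPH treated with thapsigargin or DMSO were processed by the authors. The processing notes name Bowtie, MACS2 and mm10. Per the study's methods, reads were filtered for duplicates and blacklisted regions, counted in bins, filtered against input, normalized by loess regression and compared with csaw, with the libraries of an experiment as pairs, and bins were combined into regions. Regions above the study's limit on the false discovery rate were called unchanged. Those within it were called UP or DOWN where bins of that direction outnumbered the opposite ones by a set ratio. Regions of mixed direction are therefore in none of the lists. The lists the authors deposited give chromosome, start, end and a name for each region. The unit of these values is a position in base pairs, and the lists hold no count, signal, fold change or p-value. Read depth is unknown, replicates cannot be told apart, and the authors' test could not be repeated. The direction was taken from the names of the lists. The authors' code as printed tests DMSO relative to thapsigargin, which by itself would give the opposite sign, and how its output was named UP and DOWN could not be checked here beyond the place of Hspa5, Ddit3 and Xbp1 in the UP list.

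A region was assigned to a TSS that fell in it, with all transcripts of GENCODE M21 taken, and counted within 50 kb where any of its bases did. Starts were written 1-based. Each region counted once over all genes, also where 2 windows share it. Backgrounds were protein-coding genes with a TSS in a region, or regions near or in protein-coding genes. The 10 KLF genes, the gene lists and the motifs were chosen with earlier results of these data known. All 10 genes are described. Of the gene lists, those with a TSS in UP or DOWN regions are named, with a few others as examples, chosen after their values were seen. Promoters came from RefSeq (GRCm38.p6), and the 8 that matched KLF genes were identical to the genome at their coordinates. No test was made on the KLF genes. Interval functions and motif searches were tested on simulated data. Alternatives concerned which TSSs count, the window, region width, the nearest gene and base pairs in place of regions. Python 3.11.15, numpy 2.4.6 and matplotlib 3.10.9 were used.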

Additional observations from a re-analysis of the deposited data

How the results depend on the processing

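Of 50 values over the KLF genes or all genes recomputed under other settings, 41 stayed within 1.5 times the count or within the 95% Wilson interval of the share. These intervals take regions as independent, although they cluster in 10 genes, and they are wide. For UP regions within 50 kb the interval ran from 8.7% to 29.6%. That of the median percentile treats a median over 9 genes as a share of all genes. The count of 41 is therefore a loose description of stability. The number of KLF genes with a TSS in no region fell from 1 to 0 when a TSS within 1 kb of a region counted, and to 0 with RefSeq start sites, an alternative added after the data were seen. When regions were required to extend 500 bp both upstream and downstream of a TSS, 3 genes (Klf2, Klf4 and Klf5) had none and 1 (Klf9) was left in UP, while the 3 genes in DOWN remained. The UP share was 33.3% within 10 kb, and the DOWN share 39.1% in base pairs. The median percentile of the widest TSS region over 9 KLF genes was 91.7, and 87.3 within class. Among genes with a TSS region of at least 3 kb, the background rose to 28.5% in UP and 21.9% in DOWN. The surplus of UP over DOWN regions, or the reverse, within 50 kb changed sign for no KLF gene, but that of Klf13 came to 0 within 10 kb, and Klf11 gained 1 UP region within 100 kb. Klf3 lost its UP region when the midpoint of a region had to lie in the window. Klf13 lost its UP region when regions at a TSS of another coding gene were left out. The presence of both UP and DOWN regions at these genes thus depended on the setting.

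No paired analysis was possible because the lists hold no value per library, although the authors' own model paired the libraries. Leaving out a library and a stricter threshold on the authors' test were not run, since the lists hold positions alone. The size of a change is not in the lists.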
